A study of Mus musculus with 8 samples.

Results

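The genes described here encode the endocytic receptor complex for which visceral endoderm, the nutrient-absorbing epithelium around the early mouse embryo, is known. They are Lrp2 (megalin), Cubn (cubilin), Amn (amnionless), the adaptor Dab2 and the receptor chaperone Lrpap1. They were taken from the tables by their symbols, as a set put together with earlier results of these data known, and all 5 were found in both deposited tables, among 13056 genes in one and 14319 in the other. The RNA-seq data come from 8 samples of mouse embryonic stem cells (mESCs), which make up 2 experiments and 4 conditions with 2 samples each.

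All cells were mESCs of C57BL/6(F) x 129/sv(M) background, labelled with a developmental stage of 3.5 days and grown in serum with leukaemia inhibitory factor. In the first experiment, cells of a single reporter line were sorted by GFP into a KLF3-GFP-positive and a KLF3-GFP-negative condition, 500 cells per sample. The line carries the N-terminal portion of the transcription factor KLF3, lacking its DNA-binding domain, joined to Emerald GFP under the CAGGS promoter, with DsRed as a mark of the construct, and was grown from picked colonies. Libraries were made with Smart-seq2, which amplifies full-length cDNA from few cells. In the second, clones of the R26 line, with a doxycycline-responsive transactivator at Rosa26 and the transgene at Col1a1, expressed codon-optimized KLF3 (KLF3-OE) or GFP (GFP-OE) for 72 hours, and libraries were made from poly(A) RNA. Clones were selected on feeder cells.

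The tables hold 1 FPKM value (fragments normalized for transcript length and sequencing depth) per gene and condition, which is the authors' mean of 2 samples. The spread between samples and the depth behind a value are unknown, so no SD, interval or test stands beside any difference below. Differences are those of log2(FPKM + 1), a scale that makes changes of weakly expressed genes look smaller. Where the 2 conditions of a table averaged 1 FPKM or more, a gene was tested, here meaning compared with a limit of 2-fold. A gene past this limit is called upregulated or downregulated. The lowest value listed is 0.1 FPKM, and a ratio against it is a lower bound.

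The row of Klf3 itself had 107 FPKM in negative and 122 FPKM in positive sorted cells (difference 0.19), and 58.7 FPKM in GFP-OE and 47.8 FPKM in KLF3-OE cells (difference -0.29). It was therefore not higher in the cells labelled as overexpressing KLF3. The transgene is codon-optimized, and whether its reads were counted in this row is not given in the sources used here, so the row does not check the labels. In the sorted cells the label rests on the fluorescence of the fusion protein.

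As background, megalin is a very large receptor of the LDL receptor family that spans the membrane. Cubilin has no membrane span of its own and is carried to the apical surface by amnionless, with which it forms the receptor called cubam. DAB2 binds the cytoplasmic tail of megalin and links the receptors to the clathrin coat, and the product of Lrpap1, the receptor-associated protein, escorts LDL receptor family members through the endoplasmic reticulum. Visceral endoderm uses these receptors to take up maternal lipoproteins, vitamin carriers and other proteins, and primitive endoderm, from which it arises, already expresses Dab2.

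In sorted cells, all 5 genes were higher in the KLF3-GFP-positive condition, by 3.98 to 7.04 on the log2(FPKM + 1) scale. Among all 9212 genes tested in this table, 13.8% were upregulated and 8.32% downregulated, and the median difference was 0.03, whereas the median of the 5 genes was 4.71. Of the 5, only Amn and Lrpap1 had at least 1 FPKM in both conditions. Dab2, Lrp2 and Cubn passed the minimum through their level in KLF3-GFP-positive cells, so their place among the upregulated genes was partly set by the filter.

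Lrp2, the megalin gene (ENSMUSG00000027070), was at 0.19 FPKM in the negative and 17.8 FPKM in the positive cells, a difference of 3.98 and a ratio of 93.6. Cubn (ENSMUSG00000026726) stood at the lowest listed value in KLF3-GFP-negative cells and at 27.8 FPKM in KLF3-GFP-positive cells, which is at least 278-fold higher (difference 4.71). Both receptor genes were thus near or at the bottom of the table in the negative cells.

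Amn (ENSMUSG00000021278), whose product brings cubilin to the membrane, was at 2.39 FPKM in the negative cells and 185 FPKM in the positive ones (difference 5.78, ratio 77.4). Dab2 (ENSMUSG00000022150), the clathrin adaptor, had 0.78 and 233 FPKM (difference 7.04, ratio 299). Only 3 of the genes tested rose more than Dab2, which ranked 4 of 9212 by this difference, with Amn at rank 11 and Cubn at rank 26. Lrpap1 (ENSMUSG00000029103) was the only one of the 5 already abundant in the negative cells, with 66.7 FPKM, and reached 1761 FPKM in KLF3-GFP-positive cells (difference 4.70, ratio 26.4). With this value it ranked 96 of 13056 genes by level, from rank 1343 in the negative cells.

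In bulk samples such as these, a larger share of cells that express a gene and more RNA per cell cannot be told apart.

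**Figure D1:**
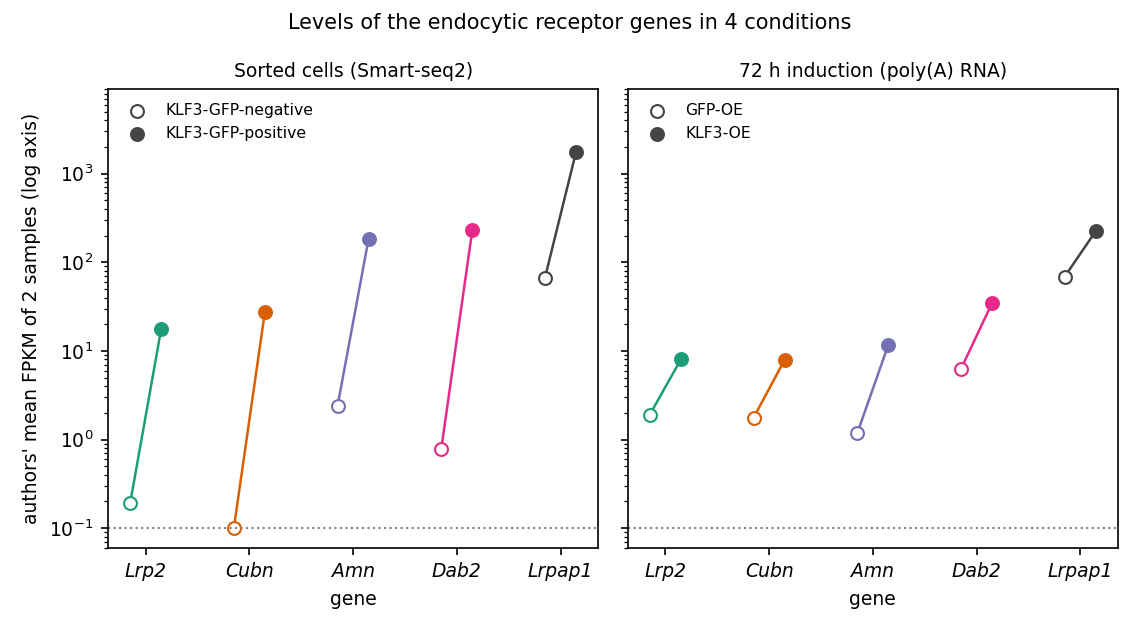
Level of each gene in FPKM (log axis) in sorted KLF3-GFP-negative and -positive cells (left) and in GFP-OE and KLF3-OE cells (right), each point being the authors' mean of 2 samples with no error available, and the dotted line the lowest listed value of 0.1. All 5 genes are higher in the KLF3 group of each experiment, with steeper lines in sorted cells, and Lrpap1 is highest throughout.

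On KLF3 overexpression, all 5 genes were again higher than in the GFP control, by 1.64 to 2.55 on the log2(FPKM + 1) scale, with a median of 1.70. Among all 11179 genes tested here, 6.6% were upregulated and 10.1% downregulated, and the median difference was -0.18. Relative to that median, the differences of the 5 genes were 1.82 to 2.73. In this table each of the 5 genes had at least 1 FPKM in both conditions.

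Amn showed the largest difference, from 1.18 FPKM in GFP-OE to 11.7 FPKM in KLF3-OE cells (difference 2.55, ratio 9.95). Dab2 had 6.26 and 34.7 FPKM (difference 2.30, ratio 5.55). By this difference Amn ranked 27 and Dab2 ranked 39 of 11179 genes.

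The receptor genes moved by nearly the same amount. Lrp2 had 1.91 FPKM in GFP-OE and 8.05 FPKM in KLF3-OE cells (difference 1.64), and Cubn had 1.76 and 7.93 FPKM (difference 1.69). Lrpap1 had 68.8 and 225 FPKM (difference 1.70, ratio 3.27). These 3 genes ranked between 121 and 145 by their difference.

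The number of genes past the limit in this experiment depended on the scaling. As deposited, 738 genes were upregulated and 1133 downregulated, and with median-ratio scaling of the columns the numbers were 1164 and 695. Each of the 5 genes stayed upregulated under both.

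**Figure D2:**
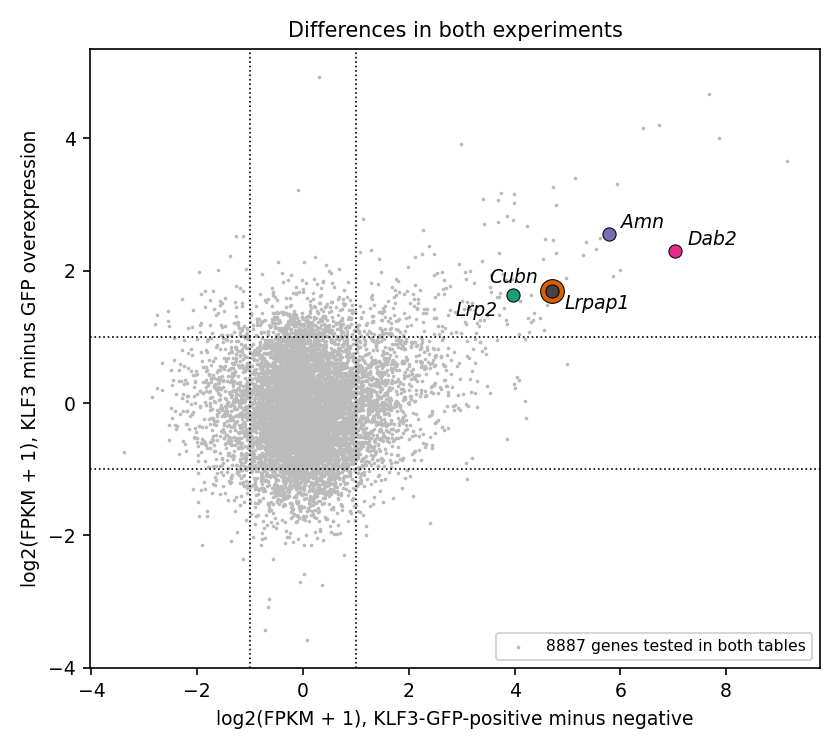
Difference in log2(FPKM + 1) between the positive and negative sorted cells (horizontal) against that between KLF3-OE and GFP-OE cells (vertical) for 8887 genes tested in both tables (grey), with the 2-fold limits dotted and the 5 genes in colour. The 5 genes lie in the upper right part, between 3.98 and 7.04 on the horizontal and between 1.64 and 2.55 on the vertical axis, and Cubn (large disc) lies under Lrpap1.

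Both experiments used separate samples and controls, but different library protocols, so levels were compared only within a table. Of 8887 genes tested in both, 227 were upregulated in both, and all 5 genes were among them. The order of the differences was not the same. On the log2(FPKM + 1) scale as deposited, Dab2 led in sorted cells and Amn on overexpression, and Lrp2 had the smallest difference in both. By the ratio of FPKM, or with a pseudocount of 0.1, Lrpap1 was the smallest in both, and with the trend with genomic span removed Dab2 (2.77) led Amn (2.28) on overexpression.

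FPKM is a value per transcript length, and on that basis the 5 genes are set side by side within a condition. Their transcripts differ widely in length, and how evenly reads covered them is unknown, so these orders are those of the FPKM values only. In KLF3-GFP-positive cells the order of levels was Lrpap1, Dab2, Amn, Cubn and Lrp2. In KLF3-OE cells it was Lrpap1, Dab2, Amn, Lrp2 and Cubn, and in GFP-OE cells Lrpap1, Dab2, Lrp2, Cubn and Amn. Without replicate values, which neighbours in these orders differ beyond their spread is unknown. The smallest gap, between Lrp2 and Cubn, was 8.05 to 7.93 FPKM in KLF3-OE cells.

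Ratios between partners are given for each condition. The tables come from different library protocols and the transcripts differ in length, so these ratios are not compared between tables. Amn had 6.66 times the FPKM of its partner Cubn in KLF3-GFP-positive cells. In the other table this ratio was 0.67 in GFP-OE and 1.48 in KLF3-OE cells. Lrp2 and Cubn stood close to equal there, with a ratio of Lrp2 to Cubn of 1.09 in GFP-OE and 1.02 in KLF3-OE cells. In KLF3-GFP-positive cells the ratio of Lrp2 to Cubn was 0.64. Dab2 had 13.1 times the FPKM of Lrp2 in KLF3-GFP-positive cells. Within the overexpression experiment it had 3.28 times the FPKM of Lrp2 in GFP-OE and 4.31 times in KLF3-OE cells. The chaperone gene Lrpap1 exceeded its client Lrp2 by 99.1-fold in KLF3-GFP-positive cells. Within the overexpression experiment it did so by 36.01-fold in GFP-OE and 28-fold in KLF3-OE cells. The corresponding ratios in KLF3-GFP-negative cells rest on values near the lowest listed one and are not interpreted.

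The genes differ widely in size. Dab2 lies on chromosome 15 of mm10 from 6299788 to 6440712 (plus strand), Lrp2 on chromosome 2 from 69424340 to 69586065 (minus strand) and Cubn on the same chromosome from 13276338 to 13491813 (minus strand). Amn lies on chromosome 12 from 111271111 to 111276426 (plus strand) and Lrpap1 on chromosome 5 from 35091501 to 35105766 (minus strand). In the GENCODE M21 annotation of this assembly, the longest coding transcript of Lrp2 has 79 exons and 15460 bases and that of Cubn 67 exons and 11262 bases. Those of Dab2, Amn and Lrpap1 have 15, 12 and 8 exons and 4663, 1701 and 2981 bases. Genes without a protein product lie on the opposite strand within Dab2 (Gm16311 and the pseudogene Gm18888) and over the 3′ part of Cubn (Gm13270), and reads of these cannot be told apart where strand was not used. The methods name a directional library kit for the overexpression samples, Smart-seq2 for the sorted ones, and default program settings except where noted. They do not state whether strand was used in computing FPKM.

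Across all genes, the difference on KLF3 overexpression varied with genomic span. Genes were split into 5 groups of nearly equal size by span. The median difference was 0.35 in the group with the shortest span, which holds Amn (5.33 kb), and -0.49 in that with the longest, which holds Dab2 (141 kb), Lrp2 (162 kb) and Cubn (215 kb). In this last group only 2.42% of genes were upregulated, compared with 16.4% in the first. Once the trend with span was removed after median-ratio scaling, the differences were 2.08 for Lrp2, 2.13 for Cubn, 2.77 for Dab2, 2.28 for Amn and 1.81 for Lrpap1. In sorted cells the medians of the 5 groups lay between -0.03 and 0.12, and the corrected differences of the 5 genes between 3.88 and 6.93.

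**Figure D3:**
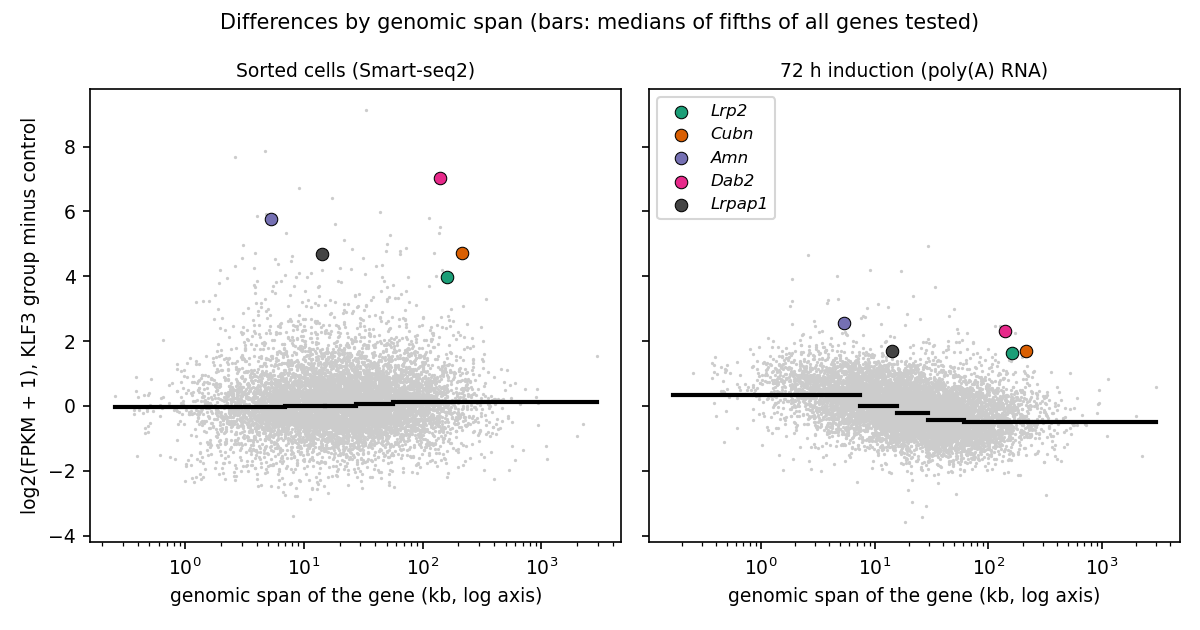
Difference in log2(FPKM + 1) against genomic span in kb (log axis) in sorted cells (left) and on overexpression (right), with grey points for genes tested in both tables, black bars for the medians of the 5 span groups of all tested genes, and coloured points for the 5 genes. On overexpression the medians fall from 0.35 to -0.49 while Dab2, Lrp2 and Cubn stay at 1.64 or more.

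Promoter windows of 300 bases, most of them before the start site, were found for all 5 genes in RefSeq (GRCm38.p6, the assembly of mm10). They are shown for Amn and Lrp2, with the most matches to CACCC, the core of the sites that KLF proteins bind, and for Dab2, the gene with the largest difference in sorted cells, which has an upstream and a downstream start site. Sequences are 5′ to 3′ on the strand of the gene, and capitals mark CACCC or its reverse complement GGGTG, or the reverse complement TTATCT of AGATAA, a site that GATA factors bind.
Amn (chr12:111270846-111271145, plus strand): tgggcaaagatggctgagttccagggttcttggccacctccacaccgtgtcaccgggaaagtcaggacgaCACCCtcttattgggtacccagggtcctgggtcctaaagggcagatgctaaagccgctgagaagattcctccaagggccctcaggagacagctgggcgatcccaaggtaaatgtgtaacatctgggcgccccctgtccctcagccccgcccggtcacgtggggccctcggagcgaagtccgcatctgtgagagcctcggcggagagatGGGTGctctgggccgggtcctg
Lrp2 (chr2:69585980-69586279, minus strand): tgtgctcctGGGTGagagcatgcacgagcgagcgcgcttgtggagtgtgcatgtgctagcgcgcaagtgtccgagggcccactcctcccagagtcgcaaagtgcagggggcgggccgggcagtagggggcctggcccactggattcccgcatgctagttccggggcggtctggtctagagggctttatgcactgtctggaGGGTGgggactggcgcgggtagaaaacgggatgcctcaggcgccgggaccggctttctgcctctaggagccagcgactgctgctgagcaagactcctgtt
Dab2, upstream start (chr15:6299539-6299838, plus strand): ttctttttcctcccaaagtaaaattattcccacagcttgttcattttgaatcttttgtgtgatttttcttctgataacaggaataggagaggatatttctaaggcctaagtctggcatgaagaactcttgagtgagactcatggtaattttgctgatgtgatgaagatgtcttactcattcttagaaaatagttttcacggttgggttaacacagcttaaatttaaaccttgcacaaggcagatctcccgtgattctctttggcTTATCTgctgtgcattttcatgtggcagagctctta
Dab2, downstream start (chr15:6386498-6386797, plus strand): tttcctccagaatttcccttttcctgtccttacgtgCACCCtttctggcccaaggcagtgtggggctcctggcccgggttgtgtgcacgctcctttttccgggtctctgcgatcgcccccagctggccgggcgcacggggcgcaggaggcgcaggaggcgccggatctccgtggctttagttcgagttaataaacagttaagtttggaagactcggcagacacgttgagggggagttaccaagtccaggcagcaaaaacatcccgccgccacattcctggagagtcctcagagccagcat

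Counting from 1 at the 5′ end of each window, CACCC on either strand was found at bases 71 to 75 and 279 to 283 in Amn, at 10 to 14 and 201 to 205 in Lrp2 and at 37 to 41 in the downstream window of Dab2. The window of Lrpap1 held 1 match and those of Cubn and of the upstream start of Dab2 held 0. Of 32851 windows of this length in the table, 57.5% hold CACCC on at least one strand, so a match in these promoters is close to the usual case. AGATAA or its complement was found only in the upstream window of Dab2, at bases 265 to 270, and 11.2% of all windows hold it. The 6 windows also differ in base composition, with a GC content from 37.7% in the upstream window of Dab2 and 44.3% in Cubn to 65.0% in Lrp2. These matches describe the letters in the windows and say nothing about binding.

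The counts in this and the following lists are to be read beside the shares of all genes tested. These were 13.8% upregulated and 8.32% downregulated in sorted cells, and 6.6% and 10.1% on overexpression. Differences of the other receptors of the LDL receptor family were smaller. Of 15 listed receptors, 5 were tested in sorted cells and 1 was upregulated, Lrp10 (1.51 to 5.53 FPKM, difference 1.38). The median of the 5 was 0.48. Lrp1, a large scavenger receptor of the family, had 3.41 and 2.21 FPKM (difference -0.46), and Ldlrad3 1.39 and 2.34 FPKM. Vldlr was below 1 FPKM in both conditions.

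On overexpression 11 receptors of the family were tested, of which 0 were upregulated and 2 were downregulated (1 with median-ratio scaling), with a median of -0.51. Sorl1, a sorting receptor of endosomes and the Golgi, fell from 8.15 to 1.88 FPKM (difference -1.67). Lrp1 had 12.8 and 14 FPKM (difference 0.12) and Ldlrad3 had 7.94 and 3.75 FPKM.

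Among the adaptors that bind receptor tails, Myo6, the motor that carries endocytic vesicles along actin and that DAB2 recruits, stood apart in sorted cells, with 0.49 FPKM in the negative and 26.5 FPKM in the positive cells (difference 4.21). On overexpression it had 4.37 and 3.61 FPKM (difference -0.22). Dab1, the neuronal relative of Dab2, was downregulated in sorted cells from 9.09 to 2.23 FPKM (difference -1.64) and had 5.82 and 11.2 FPKM on overexpression (difference 0.84). In all, 1 of 9 tested adaptors was upregulated and 1 downregulated in sorted cells. The upregulated one, Myo6, passed the minimum only through the positive cells.

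On overexpression 0 of 9 adaptors were upregulated and 2 downregulated, Numb (-1.16) and Ankra2 (-1.05), neither of which passed the limit with median-ratio scaling (-0.98 and -0.86). With that scaling Dab1 did pass it (1.03), as it did with quantile normalization (1.11) and with the span trend removed (1.26). Ankra2, which binds the tail of megalin, had 14.7 and 25.3 FPKM in sorted cells. Gipc1 had differences of -0.37 and 0.05 and Snx17 of 0.13 and 0.49, in sorted and overexpressing cells respectively.

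Genes of the clathrin coat had medians below 1 in both experiments. In sorted cells 5 of 25 tested genes of the coat and its AP-2 adaptor were upregulated and 0 downregulated, with a median difference of 0.67, and all 25 were above 0. Cltc, the clathrin heavy chain, had 6.09 and 27.9 FPKM (difference 2.02), Synj1, a phosphatase that helps to remove the coat, 0.91 and 5.54 FPKM and Necap2 12.5 and 30.9 FPKM. Synj1 passed the minimum only through the positive cells. Ap2m1, the AP-2 subunit that reads tyrosine motifs, had a difference of 0.68, and Dnm2, the dynamin that cuts vesicles free, of 0.70.

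On overexpression 3 of 26 coat genes were upregulated and 2 downregulated, with a median of -0.38. Of all genes tested there, 6.6% were upregulated and 10.1% downregulated. Bin1, which bends membranes, rose from 2.46 to 13.0 FPKM (difference 2.02), Cltb, a clathrin light chain, from 24.3 to 65.9 FPKM and Ap2s1, the small AP-2 subunit, from 93.7 to 237 FPKM. With quantile normalization Ap2s1 did not pass the limit (0.97). The downregulated genes were Cltc, at 63.1 and 29.0 FPKM (difference -1.10), and Fcho1 (-1.06). With median-ratio scaling neither passed the limit (-0.89 and -0.87), and with a pseudocount of 0.1 the number downregulated was 5. Ap2m1 had a difference of -0.18 and Dnm2 of -0.59.

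Of the endosomal sorting and recycling genes, 12 of 24 tested were upregulated in sorted cells and 0 downregulated, with a median of 0.93. Of the 27 listed, 10 had under 1 FPKM in the negative cells and could pass the minimum only through the positive ones. Among the upregulated genes these were Clcn5, Rab11fip5, Eea1 and Ccdc93. With median-ratio scaling Ehd4 (0.999) and Vps26a (0.97) did not pass the limit in sorted cells. The largest difference was that of Clcn5, the chloride-proton exchanger of endosomes that megalin uptake depends on in the kidney, from 0.16 to 6.31 FPKM (difference 2.66). Snx2, a sorting nexin of the retromer coat, rose from 55.8 to 219 FPKM and Rab11fip5, a RAB11 effector of recycling, from 0.33 to 3.99 FPKM. Ocrl, the phosphatase mutated in Lowe syndrome, had 2.2 and 2.45 FPKM.

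On overexpression 2 of 25 of these genes were upregulated and 4 downregulated, with a median of -0.17. Ehd1, which acts in recycling, rose from 27.4 to 61.3 FPKM, whereas Appl2 fell from 15.1 to 3.47 FPKM and Rab5a, the GTPase of early endosomes, from 21.6 to 8.02 FPKM. Clcn5 had 1.38 and 2.59 FPKM (difference 0.59) and Ocrl 8.34 and 3.47 FPKM (difference -1.06). With median-ratio scaling Ocrl (-0.89) and Rab5b (-0.88) no longer passed the limit, which left 2 downregulated. With the span trend removed as well, 5 were upregulated and 2 downregulated, since Ccdc93 (1.2), Commd1 (1.19) and Clcn5 (1.01) then passed it.

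The ligands that these receptors are known to take up were examined as a list of 22 genes. In sorted cells 8 of 13 tested were upregulated and 3 downregulated, with a median of 1.79, and on overexpression 8 of 13 were upregulated and 0 downregulated, with a median of 1.60. Under 1 FPKM in the control were 5 of the 16 ligands listed in sorted cells and 10 of the 19 listed on overexpression, and such genes could pass the minimum only through the KLF3 group. Among the upregulated ligands these were Plat and Igf1 in sorted cells and Apoa1, Apom, Rbp4 and Ttr on overexpression. With a minimum of 5 FPKM, 4 ligands were upregulated on overexpression. Apom, a lipocalin of lipoproteins that binds megalin, had 1.29 and 70.9 FPKM in sorted cells (difference 4.97) and 0.76 and 5.54 FPKM on overexpression (difference 1.89). Clu, the lipoprotein component clusterin, rose by 3.68 in sorted cells, from 6.22 to 91.4 FPKM, and by 3.06 on overexpression, from 12.7 to 113 FPKM.

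Other ligands did not move alike in both experiments. Trf, the iron carrier transferrin and a ligand of cubilin, fell from 18.2 to 3.93 FPKM in sorted cells (difference -1.96) and rose from 5.96 to 26.5 FPKM on overexpression (difference 1.98). Apoa1, the main protein of HDL, fell from 4.16 to 1.14 FPKM (difference -1.27) and rose from 0.63 to 8.41 FPKM (difference 2.53). Whether these differences between the experiments exceed the spread of samples was not tested. Igf1 had 0.1 FPKM, the lowest value, and 18.5 FPKM in sorted cells. Apoe rose from 420 to 1995 FPKM in sorted cells (difference 2.25) and had a difference of 0.62 on overexpression. Rbp4, the retinol carrier, had differences of 0.69 and 1.60.

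**Figure D4:**
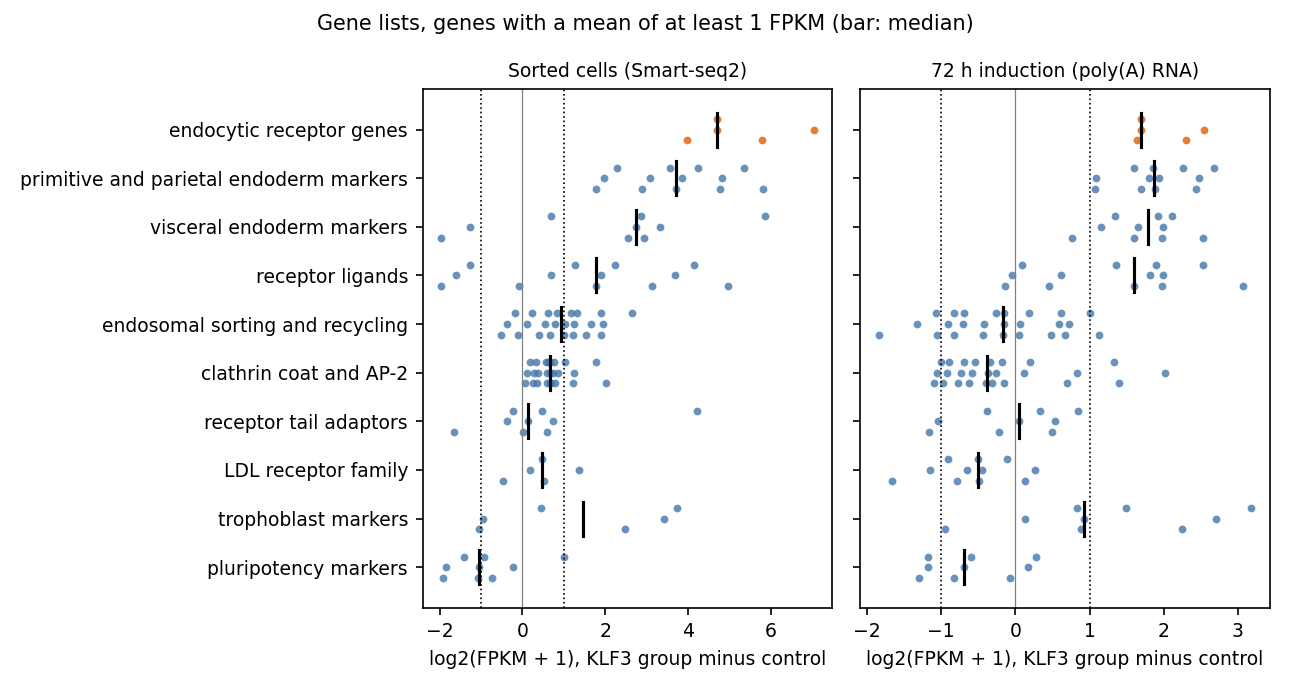
Difference in log2(FPKM + 1) between the KLF3 group and its control in sorted cells (left) and on overexpression (right) for each tested gene (points) of the 5 genes described and 9 further lists, with bars at the medians and dotted lines at the 2-fold limits. The 5 receptor genes have medians of 4.71 and 1.70. Those of the primitive and parietal endoderm markers are 3.70 and 1.87, and those of the visceral endoderm markers 2.74 and 1.79. The ligands have medians of 1.79 and 1.60, and the LDL receptor family stays at 0.48 and -0.51.

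Markers of primitive and parietal endoderm moved with the 5 genes. Plat counts in this list and among the ligands. All 13 tested markers were upregulated in sorted cells and all 12 tested on overexpression, with medians of 3.70 and 1.87. Of 14 markers listed in sorted cells, 7 had under 1 FPKM in the negative cells and could pass the minimum only through the positive ones, as could 5 of 14 in the other table through KLF3-OE. With a minimum of 5 FPKM, 7 were upregulated on overexpression. Their summed level was 58.8 FPKM in the negative and 1599 FPKM in the positive sorted cells, and 240 FPKM in GFP-OE and 929 FPKM in KLF3-OE cells. The transcription factor genes Gata6 (1.63 to 21.3 FPKM), Gata4 (1.07 to 23.4 FPKM) and Sox17 (2.76 to 53.2 FPKM) were among them in sorted cells, with differences of 1.85 to 1.93 on overexpression. Col4a1 and Col4a2, of basement membrane collagen, led the list in sorted cells (5.81 and 5.35), with Sparc at 4.83. On overexpression Pth1r led it, from 2.2 to 19.5 FPKM.

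Of 15 markers of visceral endoderm, 9 were tested in sorted cells, of which 6 were upregulated and 2 downregulated, and 10 on overexpression, of which 9 were upregulated. The medians of those tested were 2.74 and 1.79. Trf, Apoa1, Rbp4, Ttr and Apob count in this list and among the ligands. On overexpression Trf, Apoa1, Rbp4 and Ttr are therefore counted as upregulated in both lists. Of 12 markers listed in sorted cells, 7 had under 1 FPKM in the negative cells, 6 of them at the lowest value, and 9 of the 12 listed on overexpression had under 1 FPKM in GFP-OE, so that they could pass the minimum only through the KLF3 group. With a minimum of 5 FPKM, 2 were upregulated on overexpression. The summed level was 69.1 and 1571 FPKM in sorted cells and 147 and 467 FPKM on overexpression, most of it Rhox5 (1410 and 315 FPKM in the KLF3 groups). The defining markers of differentiated visceral endoderm were low. Hnf4a, its nuclear receptor, had 0.1 and 1.21 FPKM in sorted and 0.44 and 0.97 FPKM in overexpressing cells, and Ttr, a secreted carrier, 0.1 and 1.79 and 0.14 and 3.53 FPKM. Apob was at 0.1 and 0.75 FPKM in overexpressing cells and was not analysed in sorted cells, and Afp was not analysed here. Foxa2, which marks visceral endoderm and the definitive endoderm, rose by 2.94 in sorted cells (0.1 to 7.45 FPKM) and by 2.11 on overexpression (0.34 to 4.77 FPKM), and Amot by 3.33 in sorted cells. The receptor genes were therefore described here by their symbols, and the cells were not called visceral endoderm.

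Trophoblast markers, another lineage of the early embryo, had 3 of 6 tested genes upregulated and 1 downregulated in sorted cells, and 4 of 9 upregulated on overexpression. The last number was 7 with a pseudocount of 0.1 or with quantile normalization, where Ascl2, Gata2 and Krt7 also passed the limit, and 2 with a minimum of 5 FPKM. The upregulated genes included Krt8, Krt18 and Plac1 in both experiments, while Cdx2 was below 1 FPKM in all 4 conditions. Of the genes listed, 6 of 10 in sorted cells and 6 of 11 on overexpression had under 1 FPKM in the control. Plac1 in both experiments and Hand1 on overexpression passed the minimum only through the KLF3 group. As deposited, Tfap2c (-0.94 in sorted cells, -0.95 on overexpression) and Eomes (0.44 and 0.13) did not pass the limit. With a pseudocount of 0.1 Tfap2c was downregulated in sorted cells (-1.52). The summed level was 37.9 and 399 FPKM in sorted cells and 99.0 and 555 FPKM on overexpression. Most of it was Krt8 and Krt18, with 206 and 183 FPKM in KLF3-GFP-positive and 176 and 340 FPKM in KLF3-OE cells. Of the pluripotency markers, 5 of 9 were downregulated in sorted cells (Sox2, Nanog and Esrrb most) and 1 was upregulated, Tbx3 (10.1 to 21.4 FPKM, difference 1.02, and 0.98 with median-ratio scaling). On overexpression 3 of 9 were downregulated and 0 upregulated (Nanog -1.30, Esrrb -1.18 and Klf4 -1.18), while Klf2 (0.28) and Pou5f1 (0.16) were among those that did not pass the limit. With median-ratio scaling the number downregulated was 1.

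Of 12 markers of feeders and fibroblasts, 4 were listed in sorted cells, of which 0 were tested, and 6 on overexpression. Those listed summed to 1.14 and 2.17 FPKM in sorted and to 5.81 and 7.22 FPKM in overexpressing cells. These sums therefore cover only part of the markers. On overexpression Thy1, Twist1 and Loxl1 were tested, with 0 of these 3 past the limit, and Col1a1 had 0.23 and 0.29 FPKM. Of 8 macrophage markers, 3 were listed in each table, and Cd68, a lysosomal protein, made up most of their sum (4.5 and 15.04 FPKM in sorted, 12.7 and 8.64 FPKM in overexpressing cells). Neural epithelium, which also expresses Lrp2, had Pax6 at 4.5 and 0.47 FPKM in sorted and 5.4 and 0.45 FPKM in overexpressing cells, downregulated in both, while Nes (-0.60) and Sox1 (-0.06) did not pass the limit on overexpression. The part of any of these cell types in the levels of the 5 genes was not tested.

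The genes with levels most like those of each receptor gene were sought over the 4 values of log2(FPKM + 1), among 8886 genes, so level counts as well as change. Lrp2 and Cubn were among the nearest to each other, at a Euclidean distance of 0.63. Nearer still to Cubn was Ankrd1, at 0.25, a nuclear ankyrin repeat protein with 0.19 and 28.1 FPKM in sorted and 2.22 and 8 FPKM in overexpressing cells, which also came second for Lrp2 (0.65). For Dab2 the nearest were Lgals2 (galectin-2, distance 1.41) and Col4a1 (1.68). For Amn they were Cited1 (1.52), a transcriptional coregulator, and Bend5 (1.61). For Lrpap1 they were Cd63 (1.0), a tetraspanin of late endosomes, and the lysosomal protease gene Ctsl (1.55). With 4 values per gene this is a description of likeness in these means.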

How the data were processed

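RNA-seq of 8 mESC samples (2 per condition) was analysed from the tables the authors deposited, 1 per experiment, with 2 columns of FPKM each. Per the methods and the submitters' processing notes, the authors aligned reads to mm10 with STAR (version 2.6.0 in the notes, an earlier one in the methods) guided by GENCODE, computed FPKM with Cufflinks (version 2.2.1), and deposited the average of 2 replicates per condition for protein-coding genes, rounded and with 0.1 as the lowest value. Replicate values and depth are unknown, so no test over replicates could be run.

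From these values, differences of log2(FPKM + 1) were computed where the mean of both columns was at least 1 FPKM and compared with a 2-fold limit, using Python 3.11.15, pandas 2.3.3 and statsmodels 0.14.6. Of rows that share an identifier, the one with the highest mean was kept. The alternatives tried were a smaller pseudocount (0.1), no pseudocount with values floored at 0.1, no minimum, a minimum of 5 FPKM, median-ratio scaling, quantile normalization and removal of the trend with genomic span (lowess, fraction 0.3). Scripts were tested on simulated data. The genes and the 12 lists were chosen with earlier results of these data known. Named in each list were the 3 tested genes with the largest absolute difference in each experiment and a set of further genes fixed by name. Some genes under this rule are not reported here. Ascl2, Ccdc93, Cdx2, Col1a1, Commd1, Eea1, Ehd4, Eomes, Fcho1 and Gata2 were named after their values were seen. So were Hand1, Klf2, Krt7, Plat, Pou5f1, Rab5b, Tbx3, Tfap2c and Vps26a. Likeness was taken as the 2 genes nearest to each member.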

Additional observations from a re-analysis of the deposited data

How the results depend on the processing

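All 5 genes stayed upregulated in sorted cells under each of the 7 alternatives, with ranges of 3.88 to 6.55 for Lrp2, 4.64 to 8.12 for Cubn, 5.67 to 6.27 for Amn, 6.93 to 8.22 for Dab2 and 4.66 to 4.72 for Lrpap1. The highest values of Lrp2, Cubn, Amn and Dab2 came without a pseudocount. On overexpression the ranges were 1.64 to 2.08 (Lrp2), 1.69 to 2.17 (Cubn), 2.28 to 3.31 (Amn), 2.30 to 2.77 (Dab2) and 1.40 to 1.91 (Lrpap1). There, a minimum mean of 5 FPKM left 3 genes upregulated because Lrp2 and Cubn were no longer tested, so they have no value under it.

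Over all genes, a minimum of 5 FPKM gave 840 upregulated and 417 downregulated genes in sorted cells, against 1267 and 766, and 734 downregulated on overexpression, against 1133. The last number was 1819 with a pseudocount of 0.1, 1912 with a floor of 0.1, 695 with median-ratio scaling (with 1164 upregulated against 738), 711 with quantile normalization and 610 with the span trend removed. The minimum of 5 FPKM leaves fewer genes tested and does not change their differences. The other settings named here keep the genes tested and change the differences. What drives the shifts under these other settings was not tested. No paired analysis was possible because each column is an average of both replicates, and leaving out a replicate was not run for the same reason. The spread between samples and the depth are unknown, so none of the differences could be set against replicate error.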

Other observations

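Besides the 5 receptor genes, 26 of the genes tested in both tables had differences at least as large as the smallest receptor difference in each experiment (3.98 in sorted cells and 1.64 on overexpression), a limit chosen after the values were seen. Of these, 7 belong to the lists used here, 5 of them primitive and parietal endoderm markers (Col4a1, Col4a2, Sparc, Lamb1 and Pth1r). Of the 19 outside the lists, those named here were picked after their values were seen. The largest differences in sorted cells were those of Srgn (9.14, and 3.66 on overexpression), Lgals2 (7.87 and 4.01) and S100g (7.67 and 4.66). Lama1, a laminin chain of basement membranes, had 0.62 and 41.9 FPKM in sorted and 6.38 and 39.7 FPKM in overexpressing cells. Tfpi, an inhibitor of coagulation whose protein is cleared by LDL receptor family members, had 13.2 and 900.2 FPKM and 28.0 and 115 FPKM. Nostrin, an adaptor of endocytic trafficking, had 0.15 and 43.9 FPKM and 0.98 and 8.38 FPKM.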
